A study of Mus musculus with 22 samples.

Results

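The adipogenic transcription factors Pparg, Rxra, Nr1h3, Cebpa, Cebpb, Cebpd, Ebf1, Ebf2, Zfp423 and Klf15 were followed in inguinal white adipose tissue (IWAT) of lean and obese tumor-bearing mice. The 10 genes were chosen by symbol, from their known part in the making and upkeep of fat cells. All 10 were found among the 23420 gene symbols of the count table, and all 10 were among the 14458 genes that passed the filter on low counts.

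Fat cells arise from progenitors of the adipose stroma, in which EBF factors and ZFP423 mark commitment to the fat lineage. C/EBPB and C/EBPD act early in differentiation and turn on PPARG and C/EBPA, which then sustain each other and switch on the genes of lipid storage. PPARG binds DNA as a partner of RXRA, and the same factors are needed to keep a mature fat cell in its state.

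The mice were female C57Bl/6 wildtype animals of about 20 weeks of age, with no transgene. Lean mice received chow and obese mice received a high fat diet (HFD), each for 16 weeks. E0771 cells, a line from a mouse mammary tumor, were placed in PBS-Matrigel in the left inguinal fat pad (tumor-associated IWAT) and PBS-Matrigel alone in the right (control IWAT), and both pads were taken 2 weeks later, so that every control pad came from an animal that carried a tumor on its other side. RNA was sequenced from both pads of 5 lean and 6 obese mice, 22 libraries in 4 groups. The paper reports clearly larger tumors in the obese mice, so diet and tumor size cannot be told apart where obese and lean mice are compared.

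Libraries held between 5759775 and 8598108 counts on genes. Adipocyte markers were present in every library, and none of the 8 markers was at 0 anywhere. Their summed level ran from 18209 to 23149 CPM in lean control, from 11617 to 19674 CPM in lean tumor-associated, from 19069 to 33765 CPM in obese control and, lowest, from 2373 to 15674 CPM in obese tumor-associated IWAT (CPM gives the count of a gene relative to all counts on genes in its library, with library sizes scaled by the TMM method). Some libraries stood apart. The tumor-associated pads of obese mice 0 and 4 had the lowest adipocyte sums, 3772 and 2373 CPM, and the highest sums over 6 proliferation markers, 1252 and 1680 CPM against at most 872 CPM elsewhere. B cell markers summed to 607 and 538 CPM in the control pads of obese mice 1 and 3 and to 140.04 CPM in the tumor-associated pad of obese mouse 3, against at most 54.8 CPM in the others. Skeletal muscle markers summed to 2333 CPM in the control pad of obese mouse 1 and to 234 CPM in the tumor-associated pad of obese mouse 8, against at most 41.5 CPM elsewhere. Counts of members called are therefore also given without the first pair of libraries and without the 3 libraries with raised B cell markers.

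Levels per kilobase of exon, which can be set beside each other across genes, spread widely among the members. In lean control IWAT Cebpa stood at 117 ± 11.8 CPM per kb (SD, n = 5) and Pparg at 68.1 ± 10.3 CPM per kb. Rxra (28.1 ± 2.90), Cebpb (23.6 ± 3.56), Nr1h3 (20.5 ± 1.79) and Klf15 (16.3 ± 4.49 CPM per kb) followed, each within the summed SD of its neighbour in that order. Ebf1 (10.4 ± 1.32), Cebpd (7.90 ± 2.78), Ebf2 (7.28 ± 1.32) and Zfp423 (6.89 ± 0.889 CPM per kb) were lowest, again with neighbours within their spread. In obese tumor-associated IWAT the order at the top read Cebpa (43.2 ± 20.9, n = 6), Cebpb (29.7 ± 6.25), Pparg (24.01 ± 12.4) and Rxra (18.5 ± 4.67 CPM per kb), although neighbours in this order lay within their spread. The fewest reads behind any value were 19, for Klf15 in an obese tumor-associated library.

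**Figure D1:**
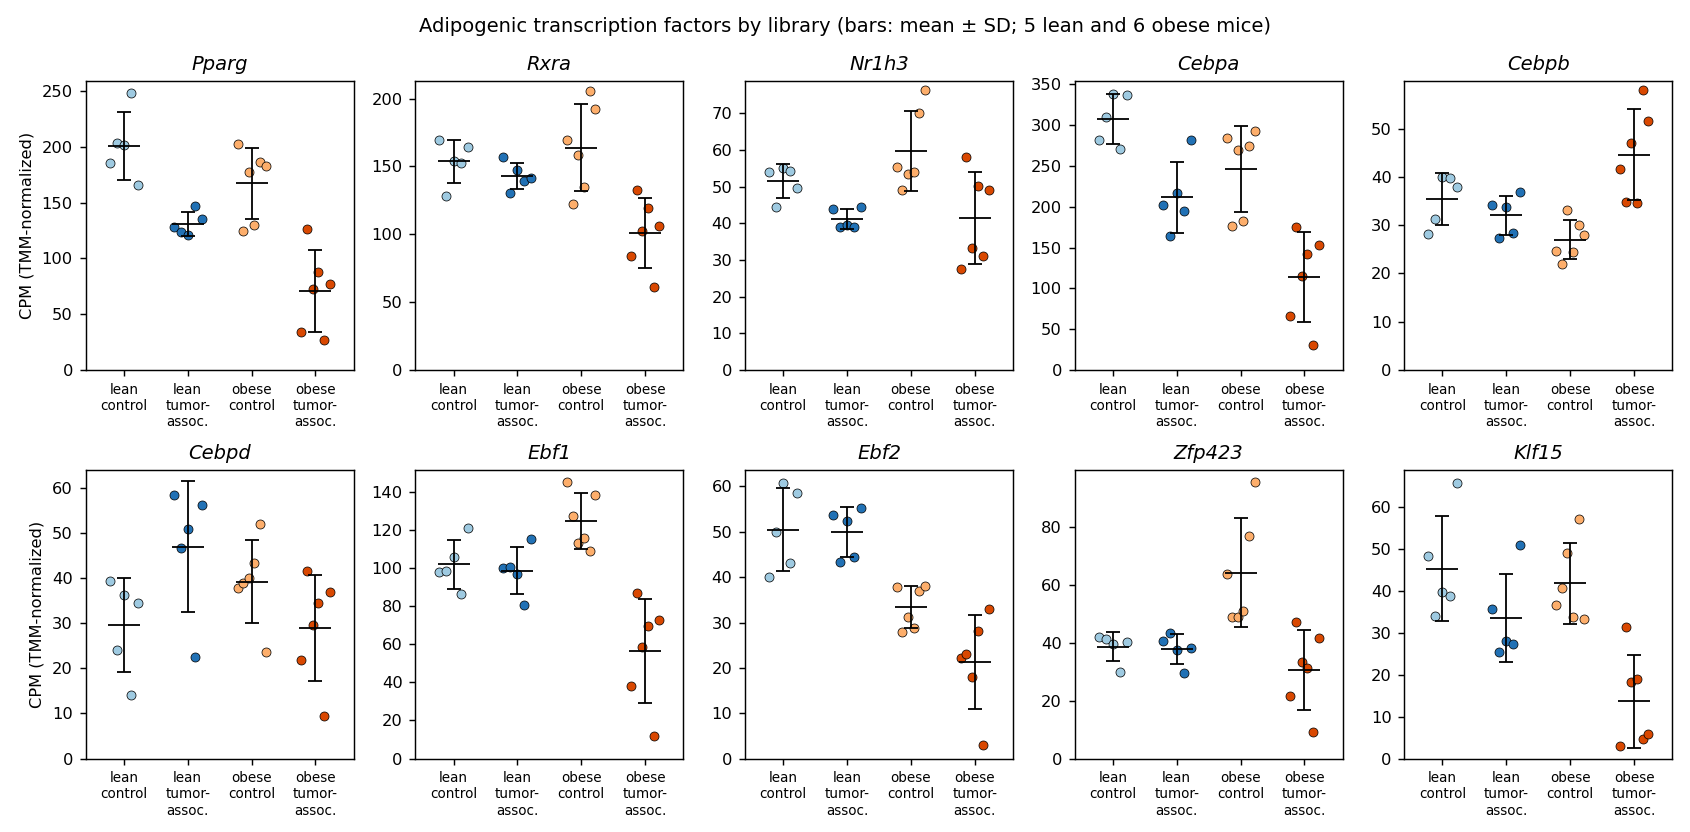
Level of each member in CPM on a linear axis from 0, in lean control, lean tumor-associated, obese control and obese tumor-associated IWAT. Each point is a library and bars give the mean ± SD of 5 lean or 6 obese mice. Obese tumor-associated libraries hold the lowest values of every member other than Cebpb, whose highest value (58.0 CPM) is in that group.

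Between the pads of obese mice 8 of the 10 members differed (edgeR, adjusted p under 0.05). Cebpb was higher and Pparg, Rxra, Nr1h3, Cebpa, Ebf1, Zfp423 and Klf15 were lower in tumor-associated IWAT. Among all genes tested 26.8% were called higher and 27.7% lower in this comparison, so that 1 higher member is below and 7 lower members are above the share of all genes. The median log2 fold change of the members was -0.88, against -0.02 over all genes tested. Between the pads of lean mice none of the 10 was called, where 4.18% of all genes were called in either direction (473 higher and 132 lower, or 382 and 199 with upper-quartile scaling), 1 member had an unadjusted p under 0.05 and DESeq2 called 0. The median change there was -0.12 on the log2 scale, against 0.01 over all genes. In bulk tissue fewer cells of a type and less RNA of a gene per cell cannot be told apart. Both counts were also taken without the libraries that stood apart. In obese mice 8 members were called without the tumor-associated pads of mice 0 and 4, with Nr1h3 lost and Ebf2 gained. Over all genes 6109 of 14517 were called in that fit. Without the libraries with B cell markers 9 members were called, with Ebf2 gained, beside 7791 of 14448 over all genes. Between lean pads Pparg and Cebpa were called lower without the tumor-associated pads of obese mice 0 and 4, and none without the libraries with B cell markers. Over all genes 438 of 14517 were called lower in the former fit, and 605 of 14448 either way in the latter. The lean libraries fitted alone called Pparg, Cebpa and Nr1h3 lower, beside 4.3% of all genes.

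**Figure D2:**
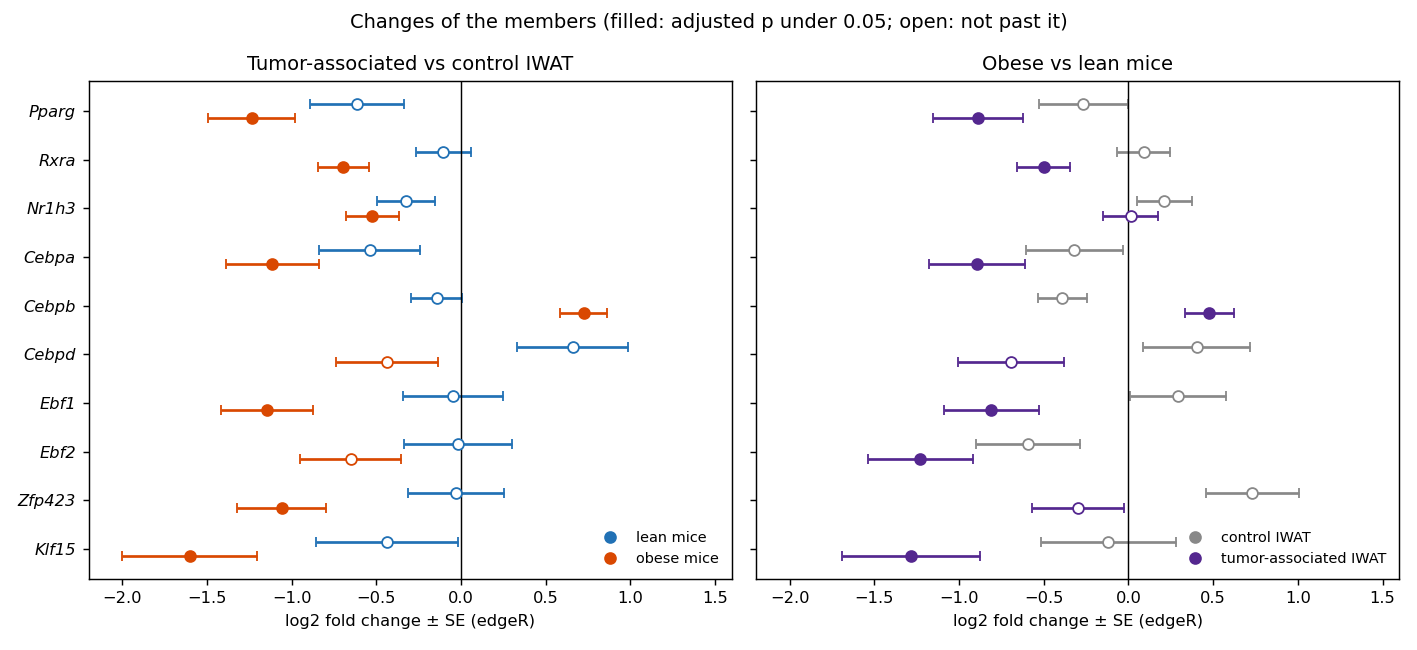
Log2 fold change ± SE of each member from the edgeR fit to all 22 libraries, tumor-associated against control IWAT (left) and obese against lean mice (right). Filled circles have an adjusted p under 0.05. In obese mice Klf15 has the lowest change (-1.60) and Cebpb alone lies above 0, while in lean mice all circles are open.

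Windows around the annotated transcription starts are shown for 4 members, because Pparg and Cebpa sustain each other in fat cells, Cebpb was the member that rose and Klf15 had the lowest change. The sequences are from RefSeq on GRCm38.p6, 250 bases before to 50 after a start, all on the plus strand. The Pparg window, chr6:115421816-115422115, is the downstream of its annotated starts and lies within the gene. The Cebpa window is chr7:35119043-35119342, the Cebpb window chr2:167688665-167688964 and the Klf15 window chr6:90462326-90462625. Capitals mark 5 motifs searched on both strands: the C/EBP half-site GCAAT, the nuclear receptor half-site AGGTCA, the E-box CACGTG, the GC box GGGCGG and the cAMP response element core TGACG.
Pparg: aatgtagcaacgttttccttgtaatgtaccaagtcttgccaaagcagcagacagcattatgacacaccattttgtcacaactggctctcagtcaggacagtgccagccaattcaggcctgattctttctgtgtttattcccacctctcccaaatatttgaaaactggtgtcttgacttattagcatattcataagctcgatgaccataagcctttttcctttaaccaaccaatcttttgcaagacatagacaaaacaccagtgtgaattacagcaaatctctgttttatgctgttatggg
Cebpa: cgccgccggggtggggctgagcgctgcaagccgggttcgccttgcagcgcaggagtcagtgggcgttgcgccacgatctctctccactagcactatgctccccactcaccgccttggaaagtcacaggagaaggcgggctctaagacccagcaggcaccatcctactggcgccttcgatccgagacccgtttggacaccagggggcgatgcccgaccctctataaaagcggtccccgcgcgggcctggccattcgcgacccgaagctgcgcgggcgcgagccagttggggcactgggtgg
Cebpb: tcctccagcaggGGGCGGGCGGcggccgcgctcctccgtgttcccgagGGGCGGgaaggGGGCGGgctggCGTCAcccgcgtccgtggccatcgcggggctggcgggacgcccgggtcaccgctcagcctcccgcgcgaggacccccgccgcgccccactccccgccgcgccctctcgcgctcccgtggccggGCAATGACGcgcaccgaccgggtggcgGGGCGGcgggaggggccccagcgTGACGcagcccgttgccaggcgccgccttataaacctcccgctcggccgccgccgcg
Klf15: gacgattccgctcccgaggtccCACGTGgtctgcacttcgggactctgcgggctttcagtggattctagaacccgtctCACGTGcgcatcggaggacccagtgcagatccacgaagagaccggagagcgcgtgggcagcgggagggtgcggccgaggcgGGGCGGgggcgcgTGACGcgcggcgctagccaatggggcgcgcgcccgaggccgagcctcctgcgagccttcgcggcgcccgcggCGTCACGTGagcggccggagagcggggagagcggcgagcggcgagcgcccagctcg
The Cebpb window held 5 GC boxes, 3 cAMP response element cores and 1 C/EBP half-site, which shared bases with 1 of those cores. The GC boxes nearest its upstream end overlapped each other. The Klf15 window held 3 E-boxes, 2 cAMP response element cores and 1 GC box, and 1 E-box shared bases with a core. No match was found in the Pparg and Cebpa windows shown, which says only that these letters are not in them. The other Pparg windows, chr6:115360894-115361193 and chr6:115362099-115362398, are not printed, and each held 1 nuclear receptor half-site, with 1 and 2 GC boxes and a G and C content of 80.3% and 62.7%. Of 32851 windows of this length, 26.4% held GCAAT, 16.3% AGGTCA, 7.15% CACGTG, 35.7% GGGCGG and 20.8% TGACG. G and C made up 80.7% of the Cebpb window, 73.3% of the Klf15 window, 67.3% of the Cebpa window and 40.3% of the Pparg window shown, against a median of 52.7% over all windows. Windows were matched for 8 of the 10 members, and Cebpd and Ebf2 are named only.

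Pparg (chr6:115360951-115490399 on GRCm38, plus strand, 13 exon blocks), the nuclear receptor that drives fat cell differentiation and is the target of glitazone drugs, was lower in obese tumor-associated IWAT. The lean control libraries stood at 186, 204, 202, 248 and 166 CPM for mice 0, 2, 3, 6 and 9. Their tumor-associated libraries stood at 129, 124, 121, 148 and 135 CPM, so that every tumor-associated library was below every control library. In the fit to all groups this lean difference was -0.62 ± 0.28 on the log2 scale (SE) and was not called (adjusted p = 0.267). Fitted on lean libraries only, it was called at -0.63 with an adjusted p of 0.00731, and so it was without the obese tumor-associated pads of mice 0 and 4, with an adjusted p of 0.0186. The lean libraries alone gave 3 lower members, Pparg, Cebpa and Nr1h3, where 4.3% of all genes were called lower. Lower groups that did not overlap were seen for 3.03% of all genes. In obese mice the control libraries had a lowest, median and highest value of 125, 179.9 and 202 CPM and the tumor-associated libraries of 26.7, 74.997 and 126 CPM. Only mouse 1, at 126 CPM against 125 CPM in its control pad, showed no lower level, and mice 0 and 4 were lowest at 34.2 and 26.7 CPM. Pparg fell 2.36-fold in obese mice, by 1.24 ± 0.26 on the log2 scale (adjusted p = 0.00061), and by 0.90 without mice 0 and 4. Counts per gene do not separate the transcripts of its different starts.

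Rxra (chr2:27676440-27762957, plus strand), which encodes the retinoid X receptor that pairs with PPARG and with the liver X receptors, was not called between lean pads and was lower in obese tumor-associated IWAT. Lean control libraries read 169, 128, 154, 152 and 165 CPM and lean tumor-associated libraries 157, 130.3, 147, 139 and 141 CPM. These groups overlapped almost fully, and the log2 difference was -0.10 with a 95% interval from -0.43 to 0.22. The obese control libraries ran from 123 to 206 CPM with a median of 164 CPM, and the tumor-associated libraries from 61.2 to 133 CPM with a median of 104 CPM. The fall was 1.62-fold (log2 -0.70 ± 0.15, adjusted p = 0.000819), with 5 of 6 mice lower and mouse 1 higher. Nr1h3 (chr2:91184061-91202834, minus strand) encodes the liver X receptor LXRA, a sensor of oxysterols that turns on lipid synthesis and cholesterol export in fat cells and macrophages. Its lean control libraries stood at 54.0, 44.4, 55.1, 54.4 and 49.7 CPM and its lean tumor-associated libraries at 43.9, 38.9, 39.4, 39.0 and 44.5 CPM. All 5 lean mice were lower next to the tumor and the groups touched in a single library, with a log2 change of -0.33 ± 0.17 (adjusted p = 0.37), and an adjusted p of 0.0249 when the lean libraries were fitted alone. In obese mice Nr1h3 went from 49.1, 54.7 and 76.3 CPM (lowest, median and highest) to 27.4, 41.2 and 57.9 CPM. That fall of 0.52 ± 0.16 on the log2 scale (adjusted p = 0.008) was the smallest of the 7, and it was -0.35 with an adjusted p of 0.0529 without mice 0 and 4 and had an adjusted p of 0.0503 in the obese libraries fitted alone. Macrophage marker sums moved the other way, from a range of 1281 to 1841 CPM in control to 2158 to 5413 CPM in tumor-associated IWAT of obese mice, and their part in the Nr1h3 level was not tested.

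Cebpa (chr7:35119293-35121928, plus strand, a gene with a single exon) encodes the C/EBP factor that keeps PPARG on and is needed for insulin-sensitive fat cells. In lean mice it stood at 282, 310.1, 338, 271 and 337 CPM in control and at 202, 164, 216, 195 and 282 CPM in tumor-associated IWAT. It was lower in 5 of 5 lean mice, and the groups overlapped through the tumor-associated pad of mouse 9. The lean log2 change was -0.54 ± 0.30 (adjusted p = 0.411 in the fit to all groups, 0.0243 in the lean libraries alone and 0.0422 without obese mice 0 and 4). In obese mice the control libraries had a lowest, median and highest value of 176, 272 and 293 CPM and the tumor-associated libraries of 31.0, 129 and 175 CPM, and no tumor-associated library reached the lowest control library. Lower groups without overlap were seen for 9.66% of all genes in obese mice, and for 4 of the members, Cebpa, Ebf1, Zfp423 and Klf15. Cebpa fell 2.16-fold (log2 -1.11 ± 0.28, adjusted p = 0.0023), in 6 of 6 mice, from -3.13 in mouse 4 to -0.01 in mouse 1. Across the 22 libraries Pparg and Cebpa had the most alike patterns of the members, together with the pair Rxra and Nr1h3, each with a root mean square difference of 0.24 in centred log2 CPM.

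Cebpb (chr2:167688915-167690418, plus strand, also a single exon) encodes an early C/EBP factor of differentiation that also acts in the inflammatory and acute-phase responses of fat cells and macrophages. It was the only member called higher. Lean control libraries stood at 28.2, 31.3, 40.0, 39.8 and 38.0 CPM and lean tumor-associated libraries at 34.1, 27.4, 33.8, 28.3 and 36.8 CPM. The lean groups overlapped, with a log2 difference of -0.14 and a 95% interval from -0.44 to 0.15. In obese mice 0, 1, 2, 3, 4 and 8 the tumor-associated pad read 41.7, 34.8, 47.0, 34.6, 58.0 and 51.6 CPM. Their control pads read 24.6, 21.98, 33.1, 24.5, 29.9 and 27.9 CPM. All 6 mice were higher, and the lowest tumor-associated library was above the highest control library, a pattern seen for 9.95% of all genes. Cebpb rose 1.65-fold (log2 0.72 ± 0.14, adjusted p = 0.000316), and by 0.61 on the log2 scale without mice 0 and 4. Mice 4 and 8 had the largest rises, 0.95 and 0.88, within a range of 0.49 to 0.95 that was narrower than for any other member in obese mice. Exons of Cebpb share 312 bases with Tmem189 on the other strand, and how the authors' count treated strand is not given in the sources used here.

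Cebpd (chr16:15887286-15891031, plus strand), the other early C/EBP factor, passed the threshold in no comparison. Lean control libraries stood at 39.2, 23.96, 36.3, 14.1 and 34.4 CPM, and their tumor-associated pads at 58.5, 46.6, 50.8, 22.4 and 56.2 CPM. Each lean mouse was higher next to the tumor, by 0.48 to 0.95 on the log2 scale, but mice differed so much in level that the groups overlapped. The fitted change was 0.66 ± 0.33 with an adjusted p of 0.336, and 0.284 with the mouse as a block. Both fits take the spread from lean and obese libraries together. Within mice the change had an SD of 0.18 in lean and 1.05 in obese mice, and no paired fit of the lean libraries alone was run. Obese control libraries had a lowest, median and highest value of 23.6, 39.4 and 51.9 CPM and tumor-associated libraries of 9.34, 32.0 and 41.6 CPM. There 4 mice were lower and 2 higher, with a log2 change of -0.44 ± 0.30 (adjusted p = 0.223). Exons of Cebpd share 562 bases with Spidr on the other strand.

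The balance of the C/EBP factors is given as ratios, a description without a test. Per kilobase of exon, Cebpb was at 0.197 of Cebpa in the median lean control library, with a range of 0.175 to 0.258. The median was 0.274 in lean tumor-associated (0.229 to 0.296), 0.203 in control (0.152 to 0.235) and 0.652 in tumor-associated IWAT (0.348 to 3.28) of obese mice. All obese tumor-associated libraries were above all obese control libraries. This follows from Cebpb being higher and Cebpa lower without overlap in these groups, and is no further result. In the tumor-associated pads of mice 0 and 4 Cebpb was above Cebpa. Cebpd over Cebpa had medians of 0.0718, 0.165, 0.119 and 0.175 in the same order of groups.

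**Figure D3:**
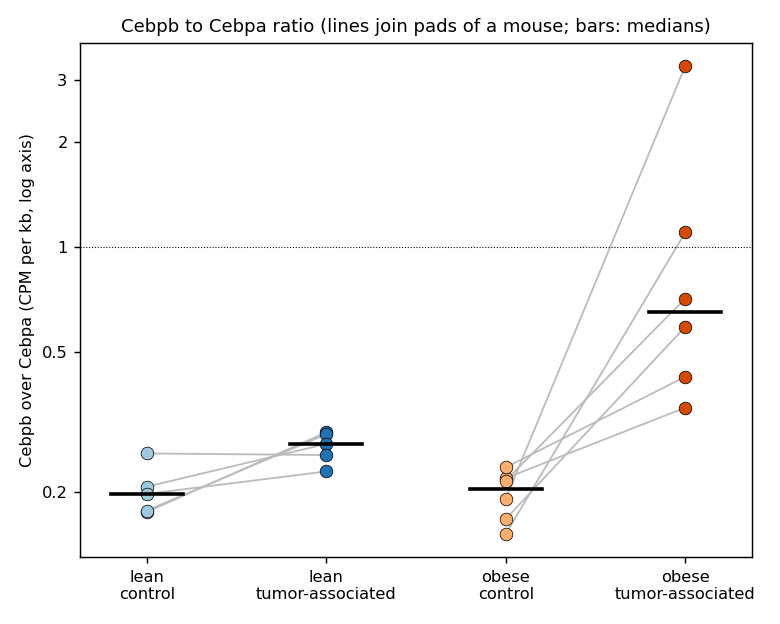
Ratio of Cebpb to Cebpa in CPM per kilobase of exon on a log axis, by group. Points are libraries, grey lines join both pads of a mouse and black bars are medians. In obese mice the median is 0.203 in control and 0.652 in tumor-associated pads, where the highest library reaches 3.28.

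Ebf1 (chr11:44617317-45008091, plus strand), an early B cell factor that also acts in fat cell differentiation and in B cell development, was not called between lean pads and was lower in the tumor-associated pads of obese mice. The lean control libraries stood at 97.9, 98.3, 106, 86.1 and 121 CPM and the lean tumor-associated libraries at 99.7, 101, 97.0, 80.6 and 115 CPM. Pads of a lean mouse were close, within -0.12 to 0.03 on the log2 scale, and the fitted difference was -0.05 with a 95% interval from -0.62 to 0.53. Obese control libraries ran from 109 to 145 CPM with a median of 121 CPM and obese tumor-associated libraries from 11.6 to 86.8 CPM with a median of 64.0 CPM, without overlap. Ebf1 fell 2.22-fold (log2 -1.15 ± 0.27, adjusted p = 0.0017), in 6 of 6 mice. The fall stayed past the threshold without the libraries with raised B cell markers, at -1.25 with an adjusted p of 0.00456.

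Ebf2 (chr14:67233292-67430918, plus strand), a related factor that marks adipose progenitors and brown and beige fat cells, was called between the tumor-associated pads of obese and lean mice and not between pads of either diet. Lean control libraries stood at 40.1, 49.9, 60.8, 43.1 and 58.5 CPM and lean tumor-associated libraries at 53.8, 43.4, 52.4, 44.5 and 55.3 CPM, with full overlap. In obese mice the lowest, median and highest values were 28.0, 34.1 and 38.0 CPM in control and 2.98, 22.7 and 33.1 CPM in tumor-associated IWAT. The obese log2 change was -0.65 ± 0.30 (adjusted p = 0.0684), with 6 of 6 mice lower. Whether Ebf2 passed the threshold between obese pads depended on the libraries used. Its adjusted p was 0.0188 without the tumor-associated pad of mouse 4 (log2 -0.44) and 0.0288 without that of mouse 8 (-0.82). It was 0.0487 without mice 0 and 4 (-0.41) and 0.0475 without the libraries with B cell markers (-0.87). The call between the tumor-associated pads of obese and lean mice was kept in all 22 fits that left out a single library. Ebf2 shares 424 exon bases with Gm10860 on the other strand.

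Zfp423 (chr8:87661810-87959595, minus strand), a zinc finger factor of committed preadipocytes that restrains the thermogenic program of white fat cells, showed almost the same level in both pads of each lean mouse. The lean control libraries stood at 42.2, 41.5, 39.5, 29.9 and 40.2 CPM and the tumor-associated libraries at 40.7, 43.5, 37.5, 29.6 and 38.2 CPM. Mouse 6 was low in both pads, and the difference between pads of a mouse stayed within -0.07 to 0.07 on the log2 scale. In obese mice Zfp423 had a lowest, median and highest value of 49.0, 57.5 and 95.5 CPM in control and of 9.20, 32.4 and 47.3 CPM in tumor-associated IWAT, without overlap. It fell 2.09-fold (log2 -1.06 ± 0.26, adjusted p = 0.00218), in 6 of 6 mice, with mouse 1 (-0.05) the least changed.

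Klf15 (chr6:90462576-90475238, plus strand), a Krüppel-like factor that is raised late in adipogenesis and by glucocorticoids and acts on Pparg and on the glucose transporter gene Slc2a4, had the lowest fold change of the members in obese mice. Lean control libraries stood at 48.4, 33.9, 39.8, 38.9 and 65.8 CPM and lean tumor-associated libraries at 35.7, 25.3, 28.1, 27.4 and 51.0 CPM. Every lean mouse was lower by a like amount, 0.37 to 0.50 on the log2 scale, while the mice differed in level and the groups overlapped. The change was -0.44 ± 0.42 (adjusted p = 0.762), and an adjusted p of 0.682 with the mouse as a block. Both fits take the spread from lean and obese libraries together. Within mice the change had an SD of 0.06 in lean and 1.35 in obese mice, and no paired fit of the lean libraries alone was run. In obese mice the control libraries had 33.4, 38.7 and 57.2 CPM (lowest, median and highest) and the tumor-associated libraries 3.05, 11.998 and 31.4 CPM. Klf15 fell 3.04-fold (log2 -1.60 ± 0.40, adjusted p = 0.00226), in 6 of 6 mice. The tumor-associated pads of mice 0, 4 and 8 were lowest at 3.05, 4.60 and 5.77 CPM, and the fall was -1.19 without mice 0 and 4 (adjusted p = 0.00651).

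The difference between the tumor changes of obese and lean mice was tested directly, although diet and tumor size go together in it and cannot be told apart. Of the members only Cebpb was called, with a tumor change 0.87 ± 0.20 higher in obese mice on the log2 scale (adjusted p = 0.0396), where 4.92% of all genes, 711 of 14458, were called. The count over all genes moved widely, from 1 to 3568 when a single library was left out, with 18 without the filter on low counts and 2318 in DESeq2. That call was near the threshold, with an adjusted p of 0.0569 without obese mice 0 and 4 and 0.0521 without the filter on low counts, and Cebpb was called in 7 of the 22 fits that left out a single library. Within mice the Cebpb change was 0.70 ± 0.19 (SD, n = 6) in obese mice and -0.14 ± 0.28 (n = 5) in lean mice. These values ran from 0.49 to 0.95 and from -0.49 to 0.27, in the same libraries as the test. The other 9 members had a lower change in obese than in lean mice, from -0.20 for Nr1h3 to -1.17 for Klf15, and none of these passed the threshold. Ebf1 (-1.10, adjusted p = 0.0774), Rxra (-0.59, 0.0828), Zfp423 (-1.03, 0.0822) and Cebpd (-1.10, 0.101) had an unadjusted p under 0.05. Without the obese tumor-associated pad of mouse 1, Rxra, Ebf1, Zfp423 and Klf15 were called besides Cebpb, with adjusted p of 0.0313, 0.0285, 0.0302 and 0.0318. Without that of mouse 4, Ebf1 was called besides Cebpb (log2 -0.89, adjusted p = 0.0302), and it was also called without mice 0 and 4 together (-0.75, adjusted p = 0.0382). Rxra was called without the libraries with B cell markers (-0.79, 0.0430).

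Between the control pads of obese and lean mice none of the members was called, where 17.1% of all genes were called (1380 higher and 1088 lower, or 1068 and 1446 with upper-quartile scaling), 2 members had an unadjusted p under 0.05 and DESeq2 called 1 member, Cebpb. Zfp423 had the highest difference, 0.73 ± 0.27 on the log2 scale (adjusted p = 0.0699), and each obese control library was above each lean control library, as for 7.44% of all genes. Ebf2 had the lowest, -0.59 ± 0.31 (adjusted p = 0.191), and each obese control library was below each lean control library, as for 5.59% of all genes. Cebpb stood 0.39 ± 0.14 lower in obese control IWAT (adjusted p = 0.0671). Fitted to the control libraries alone, 4 members were called, namely Zfp423 (0.73, adjusted p = 0.011) and Ebf1 (0.29, 0.0453) higher, and Ebf2 (-0.59, 0.00605) and Cebpb (-0.39, 0.0454) lower in obese mice, where 23.7% of all genes were called. Leaving out only the obese tumor-associated pad of mouse 4 gave adjusted p of 0.0103 for Zfp423, 0.00625 for Ebf2 and 0.0389 for Cebpb. Pparg (-0.27), Cebpa (-0.32), Rxra (0.09), Nr1h3 (0.21), Cebpd (0.40) and Klf15 (-0.12) overlapped between the diets and were not called in control IWAT.

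Between tumor-associated pads of obese and lean mice 7 members were called. Cebpb was higher by 0.48 ± 0.14 (adjusted p = 0.0107), and 24.7% of all genes were called higher. Lower were Pparg (-0.89), Rxra (-0.50), Cebpa (-0.89), Ebf1 (-0.81), Ebf2 (-1.23) and Klf15 (-1.28), and 22.4% of all genes were called lower. Over all genes 3569 were higher and 3233 lower, or 2923 and 3943 with upper-quartile scaling. Only Ebf2 had groups without overlap, 43.4 to 55.3 CPM in lean and 2.98 to 33.1 CPM in obese mice, as 13.4% of all genes did in this direction, and no member had higher groups without overlap, where 11.0% of all genes did. Nr1h3 (0.01, 95% interval from -0.31 to 0.33), Zfp423 (-0.30) and Cebpd (-0.69, adjusted p = 0.0732) were not called. Fitted to the tumor-associated libraries alone, 3 members were called and Pparg, Cebpa, Ebf1 and Klf15 were not. Over all genes 5337 of 13984 were called there. Without mice 0 and 4 the changes were nearer 0, -0.53 for Pparg, -0.32 for Rxra, -0.54 for Cebpa, -0.46 for Ebf1 and -0.86 for Klf15, and Rxra (adjusted p = 0.0673) and Cebpb (0.0556) were no longer called. Ebf1 was also not called without the lean tumor-associated pad of mouse 9 (-0.75, adjusted p = 0.0513) or the obese tumor-associated pad of mouse 0 (-0.72, 0.0524). Cebpd was called without the lean tumor-associated pad of mouse 6 (-0.87, 0.0265) or the obese tumor-associated pad of mouse 1 (-0.83, 0.039).

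The level of adipocyte RNA moved with the members. The 8 markers were called lower in 7 cases in obese mice, where 27.7% of all genes were called lower, and in 0 in lean mice. The summed adipocyte markers were lower next to the tumor in all mice, by 0.50 ± 0.26 (SD, n = 5) on the log2 scale in lean and by 1.69 ± 1.28 (n = 6) in obese mice. Each member was set against this sum within each mouse, as the log2 change of the member minus that of the sum (mean ± SD), with no test. In obese mice this was 0.29 ± 0.26 for Pparg and 0.40 ± 0.23 for Cebpa, above 0 in 6 of 6 mice. Ebf1 (0.31 ± 0.42), Zfp423 (0.50 ± 0.49) and Ebf2 (0.75 ± 0.82) were above 0 in 4, 5 and 5 of 6 mice. Rxra (0.98 ± 0.69) and Nr1h3 (1.13 ± 0.80) were above 0 in 6 of 6 mice. Cebpb (2.405 ± 1.42) and Cebpd (1.15 ± 0.77) were higher relative to the sum in 6 of 6 mice. Only Klf15 was lower relative to the sum in 6 of 6 obese mice (-0.37 ± 0.45). In lean mice the same measure was -0.11 ± 0.16 for Pparg, -0.06 ± 0.31 for Cebpa and 0.05 ± 0.20 for Klf15, and above 0 in 5 of 5 mice for Cebpd (1.18 ± 0.21), Ebf2 (0.49 ± 0.40), Zfp423 (0.47 ± 0.26), Ebf1 (0.45 ± 0.24) and Cebpb (0.36 ± 0.32). Rxra (0.40 ± 0.30) and Nr1h3 (0.18 ± 0.12) were above 0 in 4 of 5 lean mice. The markers Adipoq, Plin1, Cidec, Lep, Retn, Cfd, Car3 and Fabp4 are themselves among the genes that these factors control, so the sum is not an independent count of fat cells.

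**Figure D4:**
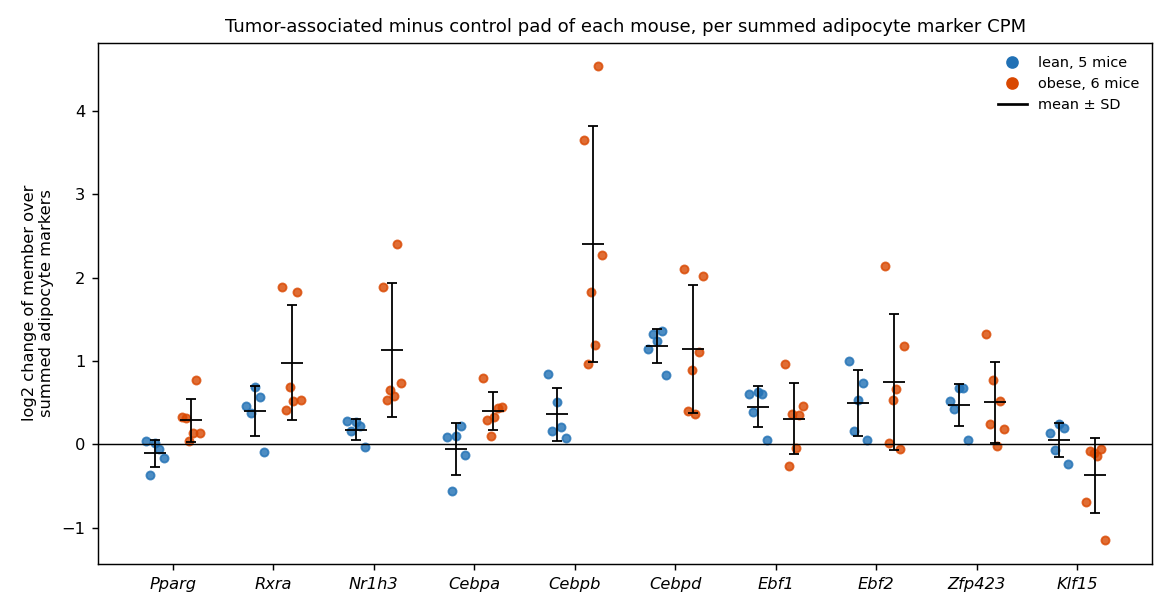
Log2 change of each member from the control to the tumor-associated pad of a mouse, after dividing its CPM by the summed CPM of 8 adipocyte markers in the same library. Points are mice (5 lean, 6 obese), bars give the mean ± SD and 0 means a change equal to that of the markers. All obese mice lie above 0 for Pparg, Rxra, Nr1h3, Cebpa, Cebpb and Cebpd and below 0 for Klf15.

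Other cell types moved with the tumor too, and their part in the members' levels was not tested. Of 12 macrophage markers 10 were called higher in lean and 11 in obese tumor-associated IWAT, none of them at 0 in any library. The counts here stand beside 26.8% of all genes called higher and 27.7% lower between obese pads, and 4.18% either way between lean pads. Of 12 markers of adipose progenitors and fibroblasts, cells that express Ebf2 and Zfp423, 5 were called higher in lean mice, and 5 higher and 1 lower in obese mice. Their sum, to which the collagen genes Col1a1, Col1a2 and Col3a1 contribute, ran in obese control IWAT from 5157 to 10893 CPM with a median of 8358 CPM. In obese tumor-associated IWAT it ran from 5217 to 18324 CPM with a median of 15370 CPM. In obese mice Col1a1 rose by 1.21, Col1a2 by 0.94 and Col3a1 by 0.96 on the log2 scale. The surface marker genes Ly6a (1.27) and Thy1 (0.75) were also called higher, while Dcn fell by 0.89. The median log2 change of the 12 markers was -0.03 in obese and 0.71 in lean mice. The sum is not a count of progenitors, whose number was not tested. Of 6 endothelial markers 5 were lower in obese mice and 0 were called in lean mice. Of 6 proliferation markers 6 were called higher in obese and 0 in lean mice. The sum of 8 luminal epithelial markers, which the mammary gland in the pad expresses, ran in obese mice from 379 to 959 CPM in control and from 186 to 492 CPM in tumor-associated IWAT, with 7 of 8 called lower.

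Target genes of PPARG and C/EBPA were lower beside the factors in obese mice. Of 20 such genes of lipid storage and adipokine secretion, 19 were lower in obese tumor-associated IWAT, where 27.7% of all genes were called lower. The list had a median log2 change of -1.42, and the gene not called was Cfd (-0.94, adjusted p = 0.0602), which encodes adipsin. Without mice 0 and 4 there were 17 lower, with a median of -1.09, beside 3356 of 14517 over all genes. The list holds all 8 adipocyte markers, so it does not read the factors apart from the level of adipocyte RNA. The fatty acid carrier gene Fabp4 fell by 1.15 ± 0.31, the fatty acid transporter gene Cd36 by 1.05 ± 0.31, the lipoprotein lipase gene Lpl by 1.51 ± 0.31 and the carbonic anhydrase gene Car3 by 1.61 ± 0.34 on the log2 scale. In lean mice 0 of 20 were called, with a median change of -0.59, and 11 were called lower when only lean libraries were fitted. The fit to all groups called 4.18% of all genes either way, and the lean libraries alone called 4.3% lower. Between control pads of obese and lean mice 2 were higher and 4 lower, or 7 and 5 in the control libraries alone and also without the tumor-associated pads of obese mice 0 and 4. Of all genes 17.1% were called between control pads, 23.7% in the control libraries alone, and 3677 of 14517 without mice 0 and 4. Lep, which encodes leptin, was 2.61 ± 0.39 higher on the log2 scale in obese control pads, and Cfd had a log2 difference of -2.12 ± 0.44, beside differences of -0.27 for Pparg and -0.32 for Cebpa that were not called. In tumor-associated IWAT 1 target was higher and 8 were lower in obese than in lean mice. There 24.7% of all genes were called higher and 22.4% lower. For the difference between diets in the tumor change 0 of 20 were called, with a median of -0.71. The share of all genes called was 4.92%.

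**Figure D5:**
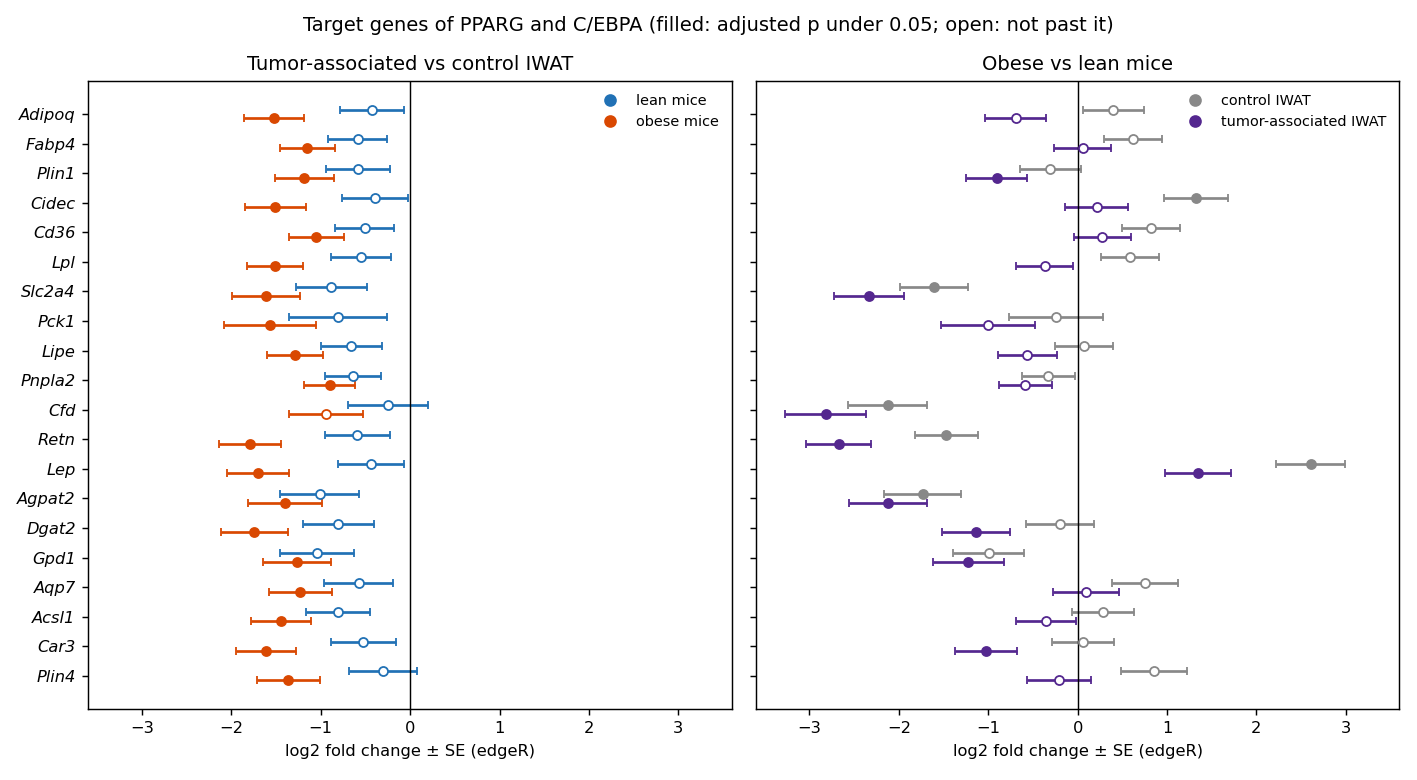
Log2 fold change ± SE of 20 target genes of PPARG and C/EBPA, tumor-associated against control IWAT (left) and obese against lean mice (right), from the edgeR fit to all 22 libraries. Filled circles have an adjusted p under 0.05. In obese mice 19 of 20 are filled and lie below 0, while between control pads the genes lie on both sides of 0, from -2.12 for Cfd to 2.61 for Lep.

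Targets of the liver X receptors went both ways. Of 8 such genes 4 were lower in obese tumor-associated IWAT (2 without mice 0 and 4, and 2 in the obese libraries alone), 0 were called in lean mice, and 3 were higher and 3 lower in obese than in lean control pads. Over all genes 27.7% were called lower between obese pads and 17.1% either way between control pads. Without mice 0 and 4 it was 3356 of 14517 lower between obese pads, and 2893 of 13786 in the obese libraries alone. The cholesterol exporter gene Abca1 (-0.66 ± 0.22) and the apolipoprotein gene Apoe (-0.67 ± 0.26) fell in obese mice, while Pltp (0.13 ± 0.24), which encodes the phospholipid transfer protein, was not called. Scd1, the stearoyl-CoA desaturase gene, was lower by 2.89 ± 0.36 in obese control pads (adjusted p = 2.38e-05), beside a Nr1h3 difference of 0.21 that was not called.

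Inflammatory genes that C/EBPB and C/EBPD bind were mostly higher next to the tumor in obese mice. Of 7 tested, 5 were higher and 1 lower in obese and 2 higher in lean tumor-associated IWAT, and without mice 0 and 4 there were 6 higher and 0 lower in obese mice. Over all genes 26.8% were called higher and 27.7% lower between obese pads, and 4.18% either way between lean pads. Without mice 0 and 4, 2753 of 14517 were higher and 3356 lower between obese pads. Socs3, a brake on cytokine signalling, rose by 1.63 ± 0.27 in obese mice and had 0.80 ± 0.29 in lean mice (adjusted p = 0.153). Stat3, the transcription factor downstream of interleukin 6 receptors, rose by 0.22 ± 0.07 in obese and 0.30 ± 0.07 in lean mice. Hp, the haptoglobin gene, rose by 1.70 ± 0.44 in lean mice and had 0.77 ± 0.39 in obese mice (adjusted p = 0.097), and Lcn2, the lipocalin 2 gene, fell by 0.92 ± 0.29 in obese mice. The differences between diets in these changes were called for 0 of 7, and for 4.92% of all genes.

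Regulators outside the members were counted in 3 more lists, to be read against the 27.7% of all genes called lower and the 26.8% called higher between the pads of obese mice. Without mice 0 and 4, 3356 of 14517 genes were lower and 2753 higher. Without the libraries with B cell markers 3880 of 14448 were lower and 3911 higher, and in the obese libraries alone 2893 and 3164 of 13786. Of 17 other genes that promote adipogenesis, 10 were lower and 2 higher in obese tumor-associated IWAT (9 and 0 without mice 0 and 4) and 0 were called in lean mice. Among them the glucocorticoid receptor gene Nr3c1 fell by 0.54 ± 0.11, Klf9 by 1.02 ± 0.25, the BMP receptor gene Bmpr1a by 0.60 ± 0.12 and Srebf1, a factor of lipid synthesis, by 0.57 ± 0.21. Of 18 genes that restrain adipogenesis, 5 were lower and 3 higher in obese mice (5 and 0 without mice 0 and 4, 7 and 1 without the libraries with B cell markers), near the share of all genes for lower and below it for higher, and 0 were called in lean mice. Foxo1 fell by 1.29 ± 0.27, the corepressor gene Ncor1 by 0.47 ± 0.08 and Wwtr1, which encodes TAZ, by 0.49 ± 0.14. Of 9 relatives of the members 3 were lower and 2 higher in obese mice, near the share of all genes, and in the obese libraries alone 1 and 1 of 8 tested. Rxrb, a paralog of Rxra, rose by 0.49 ± 0.15 where Rxra fell. Nr1h2 (-0.09 ± 0.07), a paralog of Nr1h3, and Cebpg (-0.10 ± 0.09), a further C/EBP factor, were not called.

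Likeness of pattern was measured over the 22 libraries as the root mean square difference of centred log2 CPM, with no test. The tested genes nearest to Pparg were Clybl (0.166), Ppip5k1 (0.169) and Pccb (0.169). Those nearest to Cebpa were Agmo (0.144), Aoc3 (0.150) and Park2 (0.157). Rxra was nearest to Extl3 (0.108), Nr1h3 to Sil1 (0.145), Ebf1 to Ttc38 (0.154), Zfp423 to Atp2b4 (0.199) and Ebf2 to Zfhx4 (0.207). Cebpb was nearest to Itpa (0.185). Cebpd, with Slc43a3 at 0.281, and Klf15, with Spock2 at 0.390, had no gene as near. Among the members Cebpb and Klf15 were least alike (1.35).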

How the data were processed

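RNA was extracted from both inguinal pads of 5 lean and 6 obese mice, depleted of ribosomal RNA and sequenced. The authors cleaned the reads with prinseq, aligned them to mm10 with STAR 2.4.0f and counted them per gene with HTSeq; the strand setting and annotation are not given in the sources used here. The deposited table holds raw counts, and 5 lines that name no gene (57.0% to 65.9% of a library) were left out; 0 columns were unused. Genes passing edgeR's expression filter by group (14458) were tested with edgeR 4.0.16 (R 4.3.3, limma 3.58.1), TMM scaling and the quasi-likelihood test on all 4 groups, with Benjamini-Hochberg adjusted p under 0.05 as the call; the script was checked on simulated data. Log2 CPM used a prior count of 2. Positions and exon lengths are GENCODE M21 on GRCm38. Libraries of a group came from separate mice. No 2 libraries of a group agreed within sampling noise.

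All members are named. Other genes are mostly the 4 of highest mean CPM in each list, of which not all are reported here, or the 3 of most like pattern. Members and lists were chosen with earlier results of these data known. Both pads came from the same numbered mouse, so numbers pair the samples: deviations of the pads correlated with a median of 0.508 in lean mice (5 of 5 over 0.1) and 0.168 in obese mice (4 of 6 over 0.1). Alternatives were DESeq2 1.42.0, its size factors, upper-quartile scaling, no filter, at least 10 counts in every library, only the groups compared, the mouse as a block, each library left out, and 2 sets of libraries left out that were chosen after seeing the data.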

Additional observations from a re-analysis of the deposited data

Results flagged for a closer look

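Zfp423 stood at 29.9 CPM in the control pad of lean mouse 6, far below the other 4 lean control libraries, which lay between 39.5 and 42.2 CPM. Of the 40 groups of members' values examined for a single distant library this was the 1 that stood out, and chance sets apart about 1 in 20 such groups. The tumor-associated pad of the same mouse was also the lowest of its group, at 29.6 CPM.

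For Cebpb the tumor change differed between the diets, being 0.87 higher on the log2 scale in obese than in lean mice. The difference itself was tested (edgeR, adjusted p = 0.0396), and 6 of 6 obese mice and 1 of 5 lean mice were higher next to the tumor. That call was near the threshold and was kept in 7 of the 22 fits that left out a single library. Of all genes 4.92% were called for this difference, in which diet and tumor size cannot be told apart.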

How the results depend on the processing

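Of 1520 values of members under alternative settings, 1440 kept their direction and their side of the threshold, 27 lost a call, 33 gained one and 20 changed direction. The 8 calls between the pads of obese mice were kept in all 22 fits that left out a single library. With the mouse as a replicate block, 8 members were called in obese mice, 0 in lean mice and 1 for the difference between diets, and the block changed no call of a member. Between control pads of obese and lean mice 0 members were called. DESeq2, upper-quartile scaling and the filter of at least 10 counts each called 1. The control libraries alone called 4, the fit without obese tumor-associated mice 0 and 4 called 3, and leaving out single libraries 0 to 3. Over all genes DESeq2 called 3145 of 23420, upper-quartile scaling 2514 of 14458 and the filter of at least 10 counts 1996 of 11621. The control libraries alone called 3270 of 13823 genes and the fit without mice 0 and 4 called 3677 of 14517. With single libraries left out 1606 to 3428 genes were called. Between lean pads, where 0 members were called, the lean libraries alone gave 3 and the fit without obese mice 0 and 4 gave 2. Over all genes these fits called 1437 of 13750 and 1175 of 14517. For the difference between diets in the tumor change 1 member was called. There were 0 without a filter, 2 without the libraries with B cell markers and 0 to 5 with single libraries left out. Over all genes these fits called 18 of 19839, 1170 of 14448 and 1 to 3568. Between tumor-associated pads of obese and lean mice, where 7 members were called, the tumor-associated libraries alone gave 3, beside 5337 of 13984 genes. Settings that left out these sets of libraries were chosen after seeing the data.

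Directions changed only for differences that were not called. Most of these were near 0, while Zfp423 between tumor-associated pads of the diets was -0.30 ± 0.27 in the main fit. For Nr1h3 between tumor-associated pads of the diets the value was -0.0695 with upper-quartile scaling, -0.0271 with at least 10 counts, -0.0001 in those libraries alone, -0.0511 without the libraries with B cell markers and -0.11 to 0.10 with single libraries left out. Zfp423 between tumor-associated pads of the diets was 0.0132 without mice 0 and 4. With single libraries left out Klf15 between control pads ranged from -0.23 to 0.0516, and between lean pads Ebf1 ranged from -0.12 to 0.0226, Ebf2 from -0.0891 to 0.0602 and Zfp423 from -0.11 to 0.0483. The cause of these changes was not tested. Depth limits Klf15 and Ebf2 most, with as few as 19 and 22 counts in a library, followed by Zfp423 with 68 and Cebpd with 69.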
